A study of Mus musculus with 8 samples.

Results

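The fibroblast growth factor (FGF) ligands, their receptors and the Sprouty and Spred feedback inhibitors were examined in testes of Vrk1 mutant mice and of wild-type mice. The members were all non-control probes whose gene name in the array files was Fgf, Fgfr, Spry or Spred followed by a number, with the receptor-like gene Fgfrl1 included. The rule found 60 probes of 33 genes, among 41174 distinct probes carrying 27962 gene names. They were 34 probes of 21 ligand genes, 14 probes of 5 receptor genes, 6 probes of 4 Sprouty genes and 6 probes of 3 Spred genes. Fgf4 was not analysed here.

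RNA from whole testicular cells was hybridised to single-colour Agilent mouse arrays, which report 1 fluorescence signal per 60-base probe. The mutant group comprised 4 arrays of VRK1-/- testes and the wild-type group 4 arrays of VRK1+/+ testes. The labels call the 4 samples of a genotype biological replicates and separate experiments, but not which animals they came from, so the p-values below measure the spread between these samples. The sources used here give neither the age and strain of the mice nor what kind of mutation the Vrk1 allele carries. Vrk1 encodes a nuclear serine/threonine kinase.

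FGFs are mostly secreted proteins that bind receptor tyrosine kinases together with heparan sulfate, and the bound receptors signal through the RAS-MAPK cascade. Sprouty and Spred proteins are made or recruited in response to that signalling and damp it. In the testis, Fgf9 is needed for male sex determination in the embryonic gonad, Fgf2 is used to grow spermatogonial stem cells in culture, and Etv5 is a target of the pathway that those stem cells need.

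All levels are the log2 of a probe's processed signal relative to the 75th percentile of its array, so that 0 is the 75th percentile and -6.12 is the floor to which lower values were raised. They describe a probe against itself between arrays and are not set against those of other probes. A probe was tested if at least 4 of the 8 arrays showed it well above background. A probe was called if its limma adjusted p, after Benjamini-Hochberg adjustment over all 33717 probes tested, was under 0.05.

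The targeted gene was lower in every mutant sample. The Vrk1 probe A_51_P102339 averaged -2.97 ± 0.19 in the mutant and -0.71 ± 0.16 in wild type (SD, n = 4 each), and was 4.79-fold lower in the mutant (limma adjusted p = 0.000165). The other Vrk1 probe, A_52_P555672, was 4.17-fold lower in the mutant (limma adjusted p = 0.00012). On both probes all mutant arrays lay below all wild-type arrays, the direction that the labels imply. Both probes were still well above background on all 4 mutant arrays. Which part of the gene is altered was not stated in the labels. The 75th percentile of the processed signal was 996 ± 87.3 on mutant and 719 ± 51.3 on wild-type arrays (SD, n = 4 each), and 84.3% ± 1.47 of features on mutant and 76.1% ± 1.93 on wild-type arrays lay well above background. Mutant arrays were all on 1 slide and wild-type arrays on another, each scanned separately, so in every value below slide and genotype cannot be told apart. Mutant arrays 1 and 4 stood apart in part of the epididymis markers. The mean level of 9 measured markers was 0.18 and -0.28 on them and -1.85 and -2.25 on mutant arrays 2 and 3. On the wild-type arrays it was -3.20 to -2.64. The gap was wide for Crisp1, Spink8, Cd52 and Ltf and small for Crisp4 and Rnase10. Gpx5, Adam28 and Spinlw1 did not set mutant arrays 1 and 4 apart.

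Sequences are shown for 4 called ligand probes. The Fgf6 probe had the largest fitted difference, and the Fgf7 probe was well above background on mutant arrays alone. The Fgf11 and Fgf20 probes were the 2 called lower in the mutant. These sequences were read from the array files and are written 5′ to 3′ in the sense of the transcript. Their mm7 coordinates are those of the array design. The Fgf6 probe lay at chr6:127040970-127041029 (plus strand), the Fgf7 probe at chr2:125830264-125830323 (plus), the Fgf11 probe at chr11:69881013-69881282 (minus, a span longer than the probe) and the Fgf20 probe at chr8:39070356-39070415 (minus).
Fgf6 A_52_P155536: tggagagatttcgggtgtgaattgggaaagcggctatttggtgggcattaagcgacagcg
Fgf7 A_51_P465331: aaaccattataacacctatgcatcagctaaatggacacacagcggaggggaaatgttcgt
Fgf11 A_51_P517706: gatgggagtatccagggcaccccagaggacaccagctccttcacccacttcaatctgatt
Fgf20 A_51_P355735: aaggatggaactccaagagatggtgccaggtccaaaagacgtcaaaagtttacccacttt

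A pair of overlapping Fgfr1 probes is shown because their results differed. A_51_P109469 lay at chr8:24330044-24330103 and A_52_P668810 at chr8:24330065-24330124, both on the plus strand. Capitals mark the 39 bases that the probes share, which hold 1 difference, A57G, counted from 1 at the 5′ end of A_51_P109469.
Fgfr1 A_51_P109469: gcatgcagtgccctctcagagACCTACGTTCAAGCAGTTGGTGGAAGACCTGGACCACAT
Fgfr1 A_52_P668810: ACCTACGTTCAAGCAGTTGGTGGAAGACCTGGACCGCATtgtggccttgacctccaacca

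Of the 60 probes, 48 probes of 27 genes were tested. Of these, 17 probes of 15 genes were higher and 2 probes of 2 genes were lower in the mutant, and 29 were not called. Thus 35.4% of the tested FGF-family probes were called higher and 4.17% lower, against 21.2% higher and 10.8% lower over all 33717 probes tested. The median log2 difference, mutant minus wild type, was 0.22 over the FGF-family probes tested and 0.05 over all probes tested. Whole testis was measured, so fewer cells of a type and less RNA per cell cannot be told apart. Of the 48 tested probes, 3 (of Fgf7, Fgfr1 and Spry3) lay well above background on mutant arrays alone and passed the filter through them, as did 898 of all probes tested.

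Over all tested probes, the share called higher fell as the signal level rose, and the FGF-family shares showed no such order. At a mean level below -4, 7 of 21 FGF-family probes were called higher in the mutant, and 35% of all tested probes were. At mean levels from -4 to -2 it was 8 of 19 FGF-family probes and 24.4% of all probes, and above -2 it was 2 of 8 FGF-family probes and 14.8% of all probes. Calls of lower signal took in 1, 0 and 1 FGF-family probes in the 3 ranges, against 2.51%, 4.96% and 16.8% of all probes. The FGF-family share below -4 was therefore near that of all probes.

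**Figure D1:**
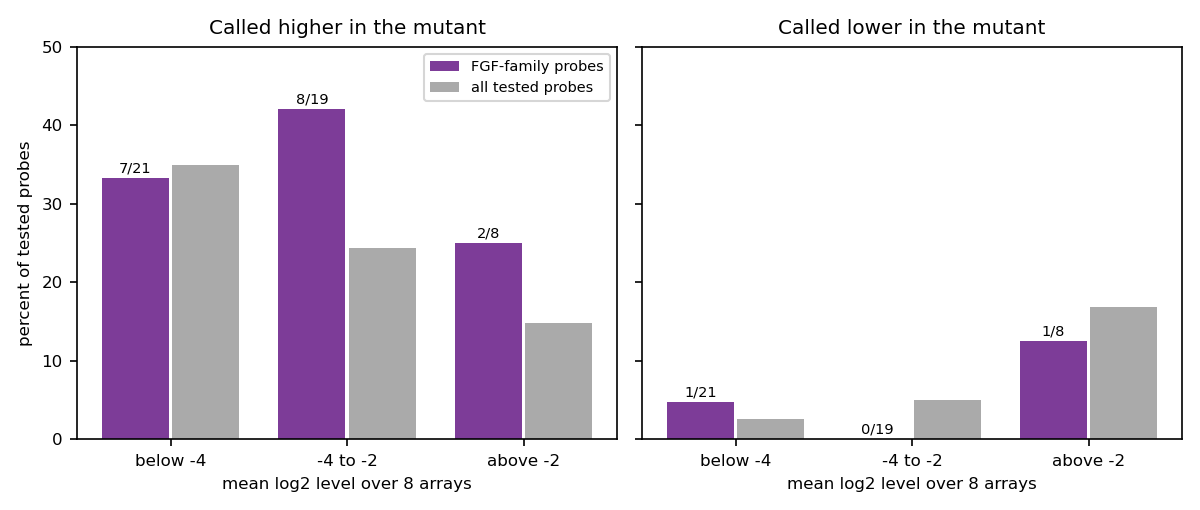
Percent of tested probes called higher (left) and lower (right) in the mutant, by mean log2 level over the 8 arrays, for FGF-family probes (purple, with counts above the bars) and all tested probes (grey). The grey bars for higher calls are 35%, 24.4% and 14.8% from low to high levels, and 7 of 21 FGF-family probes in the lowest range were called.

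In 15 of the 19 called probes the 4 mutant arrays did not overlap the 4 wild-type arrays. The same held for 9594 of the 10815 called probes over the whole array. Counted over all tested FGF-family probes, 14 of 48 had all mutant arrays above all wild-type arrays and 3 of 48 had all below, where the shares over all probes were 21.5% and 13.7%. Several probes measured 16 of the 27 tested genes. Their differences had the same sign in 10 genes and both signs in 6, no gene was called in both directions, and every tested probe was called in 2 genes, Fgf6 and Spred1.

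**Figure D2:**
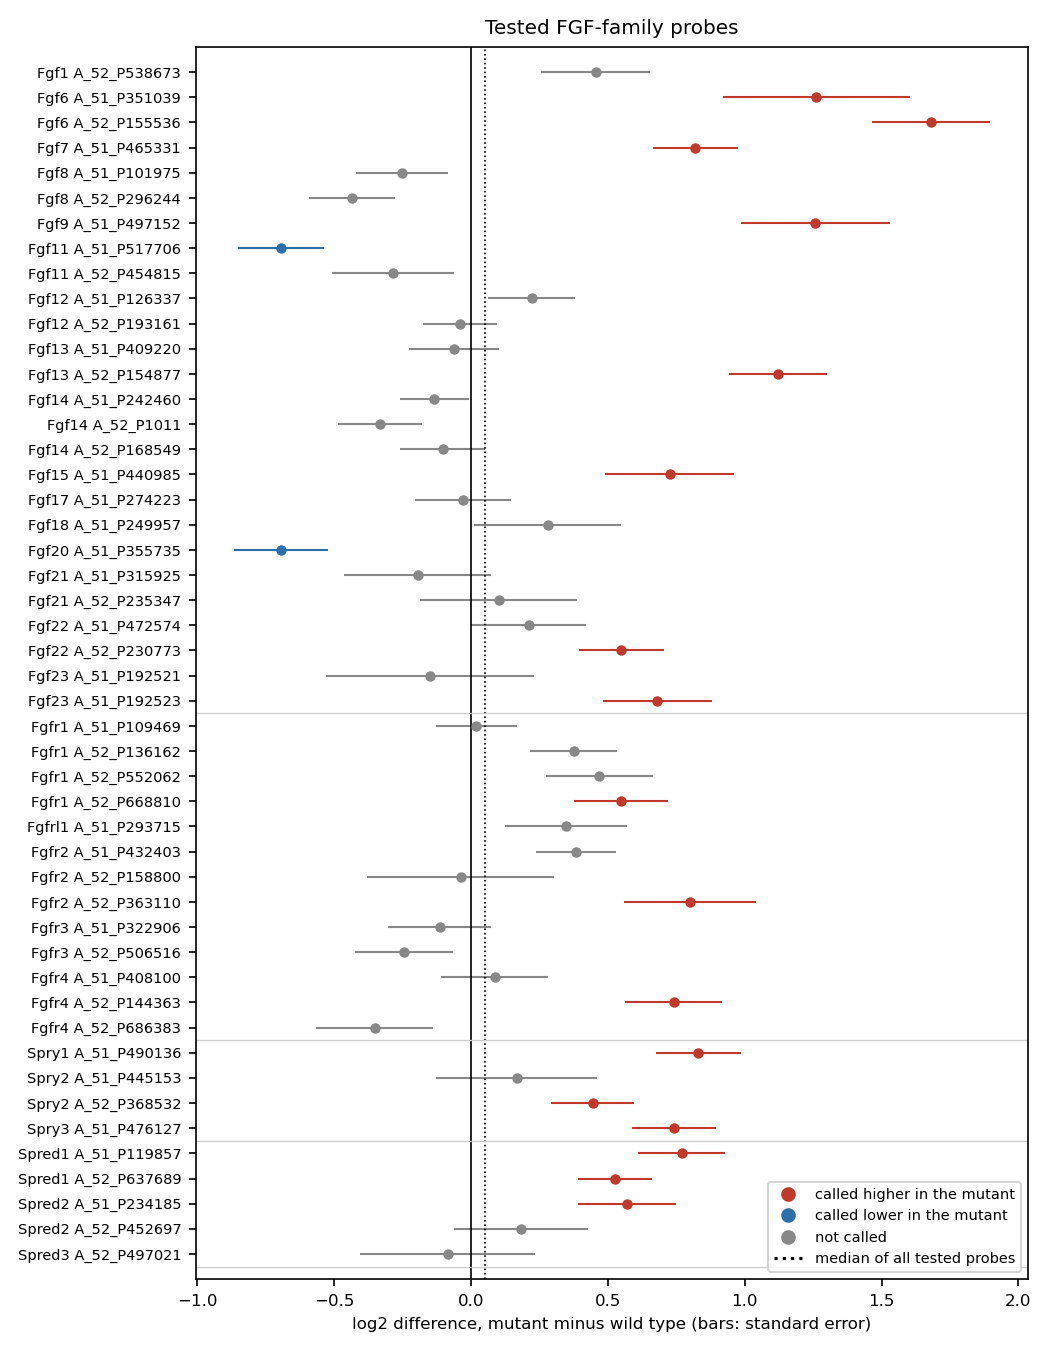
Log2 difference, mutant minus wild type, of each of the 48 tested FGF-family probes with its standard error, from ligands at the top through receptors and Sprouty to Spred probes at the bottom; the dotted line is the median of all tested probes, 0.05. Called probes reach from -0.69 for Fgf11 and Fgf20 to 1.68 for Fgf6, and several genes have 1 called and 1 uncalled probe.

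Among the secreted ligands that act near their source, Fgf6, Fgf9, Fgf7 and Fgf22 were higher and Fgf20 was lower in the mutant. Fgf6, best known from muscle, had the largest fitted difference. Its probe A_52_P155536 was at -3.84, -3.56, -3.93 and -3.87 on mutant arrays 1 to 4, against -5.37, -5.32, -6.12 and -5.11 on wild-type arrays 1 to 4. The mutant arrays lay close together and all above the wild-type arrays, of which 1 was at the floor. Since only 1 wild-type array was well above background, the fitted fold of 3.21, higher in the mutant, rests on dim wild-type values (log2 1.68, SE 0.22, limma adjusted p = 0.00134). Before scaling, the processed signals were 67.4, 78.7, 63.5 and 76.9 on the mutant arrays and 16.4, 17.1, 5.81 and 22.9 on the wild-type arrays.

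The other Fgf6 probe, A_51_P351039, was at -4.09, -3.71, -3.69 and -3.72 in the mutant, against -6.12, -4.26, -5.19 and -4.68 in wild type. The groups did not overlap, but the wild-type arrays spread over a wide range. The difference was 1.26 (SE 0.34, limma adjusted p = 0.0223), and the call ended without mutant array 3, mutant array 4 or wild-type array 3. With normexp background correction, which adds an offset of 50 to every signal, the differences of the 2 Fgf6 probes were -0.01 and -0.04.

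Fgf9 was 2.39-fold higher in the mutant. Its only probe was at -3.16, -2.82, -3.01 and -3.12 on mutant arrays and at -4.61, -4.04, -3.55 and -4.94 on wild-type arrays. All mutant arrays lay above all wild-type arrays, and all 8 arrays were well above background. The log2 difference was 1.26 with a standard error of 0.27 (limma adjusted p = 0.00983), and it was 0.09 with normexp. The embryonic role of Fgf9 is to hold the gonad on the male course by keeping Sox9 on.

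Fgf7, a keratinocyte growth factor made by mesenchyme, was at -4.82, -4.94, -5.00 and -4.90 in the mutant, against -6.12, -5.57, -5.57 and -5.68 in wild type. The groups did not overlap, and no wild-type array was well above background. For such a probe the fitted fold rests on dim values and is not a lower limit. Each dim array counts as the higher of the probe's own signal and the floor. The fitted fold of Fgf7 was 1.76, higher in the mutant (limma adjusted p = 0.00603). Its call ended with quantile normalization (0.41) and with a floor 2 times as high (0.21, adjusted p = 0.0674), and with normexp the difference was -0.43.

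Fgf22, a relative of Fgf7 that organises synapses in the brain, was measured by 2 probes. A_52_P230773 was at -4.19, -3.89, -3.90 and -3.75 in the mutant and at -4.19, -4.56, -4.67 and -4.51 in wild type. Mutant array 1 and wild-type array 1 were at the same level, and the others were apart. The difference was 0.55 (SE 0.16, limma adjusted p = 0.0259), against 0.21 for the other probe (adjusted p = 0.447). The call ended under every other scaling, and with normexp the difference was -0.24.

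Fgf20, the closest relative of Fgf9, differed in the opposite direction. It was at -5.27, -5.00, -5.16 and -4.98 on mutant arrays, against -4.80, -4.05, -4.37 and -4.43 on wild-type arrays. All mutant arrays lay below all wild-type arrays. Fgf20 was 1.62-fold lower in the mutant (log2 -0.69, SE 0.17, limma adjusted p = 0.0163), and it kept its call under every change of scaling and background correction, at -1.19 to -0.71. Some of these settings moved differences downward in general. The median of all probes was -0.17 with median scaling, -0.06 with quantile normalization and -0.23 with normexp, against 0.05 in the main fit. A call of lower signal is easier to keep there.

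The endocrine ligands Fgf15 and Fgf23 were called higher in the mutant on 1 probe each. Fgf15, the mouse counterpart of human FGF19 and a gut hormone that represses bile acid synthesis, was at -3.37, -3.22, -3.16 and -3.22 in the mutant, against -3.27, -4.23, -4.48 and -3.89 in wild type. Wild-type array 1 lay within the mutant range. The difference was 0.73 (SE 0.24, limma adjusted p = 0.0411), and the call ended in 7 of the 8 fits without 1 array, all except that without wild-type array 1. It also ended under every other scaling (0.41 to 0.71), without the filter on dim probes and with a floor 2 times as high, and the difference was -0.01 with normexp.

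Fgf23, a bone hormone that lowers serum phosphate and acts with the coreceptor Klotho, was at -2.46, -2.24, -2.35 and -2.41 in the mutant and at -3.24, -2.50, -2.98 and -3.45 in wild type on probe A_51_P192523. The mutant arrays lay above the wild-type arrays, with wild-type array 2 close to them. The difference was 0.68 (SE 0.20, limma adjusted p = 0.0288) and ended as a call in 6 of the 8 fits without 1 array, under every other scaling (0.45 to 0.66), without the filter on dim probes and with normexp (0.098). The other Fgf23 probe differed by -0.15 (adjusted p = 0.778). Fgf21, the third endocrine ligand, was not called on either probe, with differences of -0.19 and 0.10.

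Intracellular FGF homologous factors are not secreted and bind voltage-gated sodium channels. Fgf13 probe A_52_P154877 was at -4.12, -4.46, -4.14 and -4.0 in the mutant, against -5.75, -5.13, -5.11 and -5.22 in wild type. The groups were apart, with wild-type array 1 the lowest. The probe was 2.18-fold higher in the mutant (log2 1.12, SE 0.18, limma adjusted p = 0.0033), and its difference was -0.15 with normexp. The other tested Fgf13 probe, A_51_P409220, was at -5.33 ± 0.26 in the mutant and -5.27 ± 0.17 in wild type (SD, n = 4 each), a difference of -0.06 that was not called (adjusted p = 0.791).

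Fgf11, of the same intracellular group, was lower in the mutant on probe A_51_P517706. The 4 mutant arrays were at -2.48, -1.88, -2.29 and -2.01 and the 4 wild-type arrays at -1.41, -1.38, -1.54 and -1.55. The wild-type arrays lay close together and above every mutant array. The signal was 1.62-fold lower in the mutant (log2 -0.69, SE 0.16, limma adjusted p = 0.0116), and the call held under each scaling and with normexp. The downward shift of some settings, given for Fgf20, applies here too. The other Fgf11 probe differed by -0.28 (adjusted p = 0.339). The remaining genes of the group, Fgf12 on 2 probes and Fgf14 on 3, were not called, with differences from -0.33 to 0.22.

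Fgf8, an embryonic patterning ligand, was not called. Its 10-spot probe was at -1.91, -1.77, -1.87 and -2.01 in the mutant, against -1.67, -1.36, -1.47 and -2.06 in wild type. Wild-type array 4 was the lowest of all 8. The difference was -0.25 (SE 0.17, limma adjusted p = 0.265), and it passed the test with median scaling, at -0.47 (adjusted p = 0.0447), and with array weights, at -0.39 (adjusted p = 0.0189). The other Fgf8 probe had all mutant arrays below all wild-type arrays and a difference of -0.43 (adjusted p = 0.058).

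Fgf2 was near background. Its 10-spot probe was at -5.88, -5.79, -6.05 and -5.61 on mutant arrays and at -6.10, -5.88, -5.82 and -6.04 on wild-type arrays. The groups overlapped, only 1 mutant array was well above background, and the probe was not tested. The other Fgf2 probe was at the floor on all 8 arrays. Of the rest of the ligands, Fgf1, Fgf17 and Fgf18 were not called on their tested probes, with differences from -0.03 to 0.46, and Fgf3, Fgf5, Fgf10 and Fgf16 were well above background on no array.

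Over the 26 tested ligand probes, 8 were higher and 2 lower in the mutant, with a median difference of 0.04. That was 30.8% higher and 7.69% lower, against 21.2% and 10.8% of all probes. These shares over all probes are not matched for signal level, and many ligand probes were dim. Of all probes, 35% were called higher below -4, 24.4% from -4 to -2 and 14.8% above -2. The shares over all probes given below for receptors and feedback inhibitors are not matched for level either. With each scaling alternative the number called higher was 3 to 5 and the number called lower 2 to 5. Over all probes, 13.1% to 15.5% were then higher and 4.1% to 26% lower. With normexp 0 ligand probes were higher and 4 lower, against 6.2% and 9.2% of all probes.

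**Figure D3:**
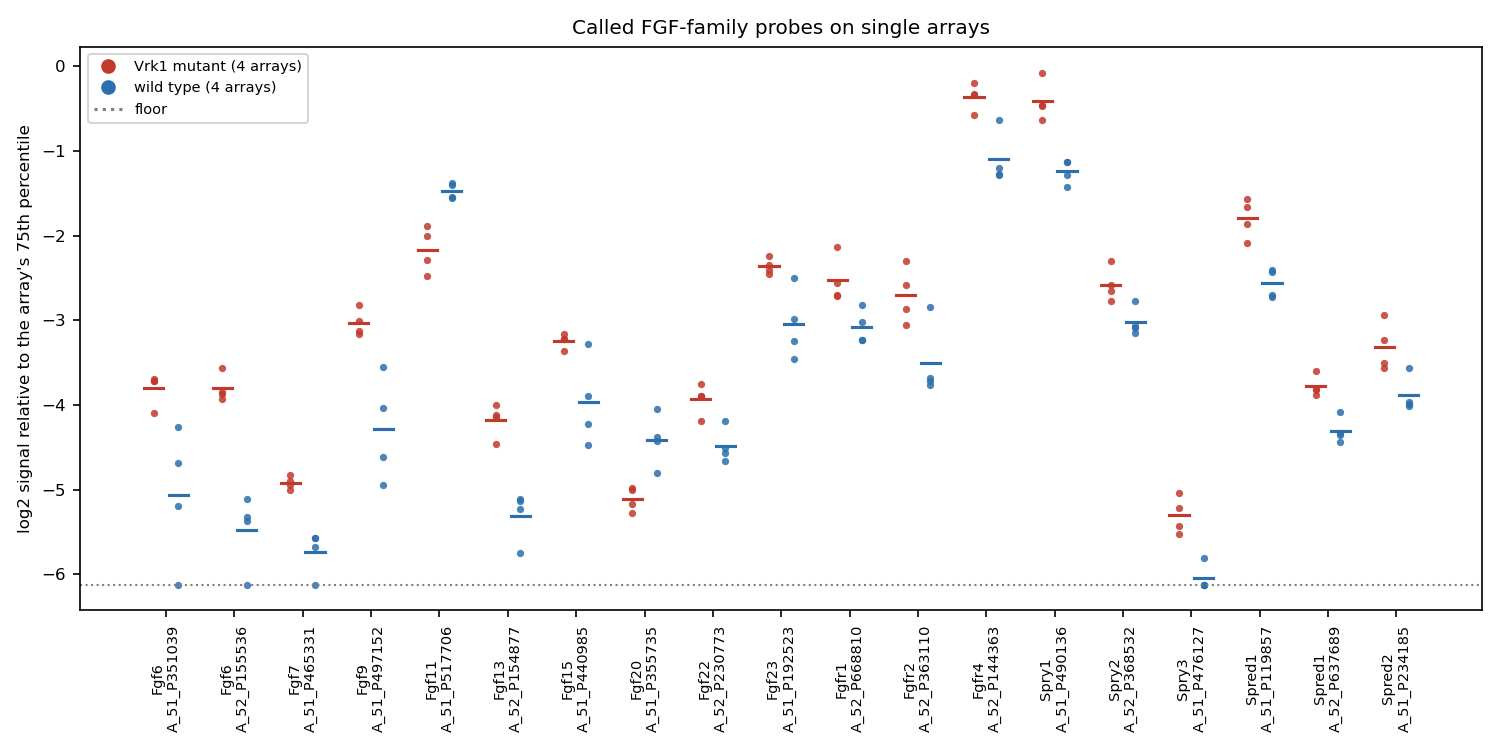
Log2 level of the 19 called FGF-family probes on each array, mutant (red) left of wild type (blue), with the group mean as a bar and the floor as a dotted line. The groups are apart for 15 probes, Fgf11 and Fgf20 are the 2 probes with the mutant below, and wild-type arrays reach the floor for Fgf6, Fgf7 and Spry3.

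Among the receptors, 3 of 13 tested probes were higher in the mutant, 1 each of Fgfr1, Fgfr2 and Fgfr4, and 0 were lower, with a median difference of 0.35. That was 23.1% of the tested receptor probes called higher, against 21.2% of all probes. With the scaling alternatives 1 or 2 were higher and 0 lower, and the median was -0.01 with quantile normalization. Under these scalings 13.1% to 15.5% of all probes were higher and 4.1% to 26% lower. With normexp 0 were higher and 1 lower, with a median of -0.26. In each of the 3 genes other probes were not called. Fgfr1 to Fgfr4 are the receptor tyrosine kinases. Fgfr4 probe A_52_P144363 was at -0.33, -0.20, -0.33 and -0.58 in the mutant, against -1.27, -0.64, -1.29 and -1.21 in wild type. The groups did not overlap, with wild-type array 2 nearest the mutant arrays. The probe was 1.67-fold higher in the mutant (log2 0.74, SE 0.18, limma adjusted p = 0.0139), and it stayed called under each scaling.

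The Fgfr4 probe A_51_P408100 was at 0.07, -0.40, -0.06 and -0.12 in the mutant and at 0.10, -0.21, -0.71 and -0.03 in wild type. The groups overlapped, and the difference of 0.09 was not called (limma adjusted p = 0.745). The remaining Fgfr4 probe, A_52_P686383, differed by -0.35 (adjusted p = 0.221). The 3 probes lay within 1 kilobase on chromosome 13, between 54250254 and 54251065 in mm7.

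The overlapping Fgfr1 probes printed above gave unlike values. A_52_P668810 was at -2.71, -2.56, -2.70 and -2.14 in the mutant, against -3.01, -3.23, -3.24 and -2.82 in wild type. All mutant arrays lay above all wild-type arrays, and the difference was 0.55 (SE 0.17, limma adjusted p = 0.0367). A_51_P109469, a 10-spot probe, was at -2.65, -2.66, -2.56 and -2.21 in the mutant and at -2.36, -2.57, -2.63 and -2.59 in wild type.

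On A_51_P109469 the groups overlapped and the difference was 0.02 (SE 0.15, limma adjusted p = 0.926), with a median SD of 0.23 between the spots of an array. The remaining Fgfr1 probes differed by 0.37 (adjusted p = 0.0966, a fitted fold of 1.30, with no wild-type array well above background) and 0.47 (adjusted p = 0.0887). Fgfr1 was called on 1 of its 4 tested probes, and that call ended under every other scaling and in 6 of the 8 fits without 1 array.

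Fgfr2 probe A_52_P363110 was at -2.30, -3.05, -2.86 and -2.58 in the mutant, against -2.84, -3.72, -3.68 and -3.76 in wild type. Wild-type array 1 lay inside the mutant range, and the other wild-type arrays were below it. The difference was 0.80 (SE 0.24, limma adjusted p = 0.0323), and the call ended with median scaling, quantile normalization and cyclic loess and in 6 of the 8 fits without 1 array. The other tested Fgfr2 probes differed by 0.38 (adjusted p = 0.0675, groups apart) and -0.04 (adjusted p = 0.942).

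Fgfr3 was not called. Its probe A_52_P506516 was at -2.36, -1.89, -1.94 and -1.75 in the mutant and at -1.66, -1.72, -2.06 and -1.52 in wild type. The groups overlapped, and the difference was -0.24 (SE 0.18, limma adjusted p = 0.303). A second probe, A_51_P322906, overlaps it by 37 bases with 1 difference, T28C, counted from 1 at the 5′ end of A_51_P322906. It differed by -0.11 (adjusted p = 0.658), and the third was well above background on no array.

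Fgfrl1, a receptor-like protein without a tyrosine kinase domain, was at 0.53, 0.36, 0.44 and 1.18 in the mutant, against 0.16, 0.15, 0.05 and 0.75 in wild type. Array 4 was the highest of each genotype, and wild-type array 4 lay above 3 of the mutant arrays. The difference of 0.35 was not called (SE 0.22, limma adjusted p = 0.244).

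Among the feedback inhibitors, 6 of 9 tested probes, of 5 genes, were higher in the mutant and 0 were lower, with a median difference of 0.53. The share called higher was 66.7%, against 21.2% of all probes, and 10.8% of all probes were lower. The number called higher was 3 with median scaling, 2 with quantile normalization, 3 with cyclic loess, 2 with spike-in scaling and 1 with normexp, where 13.3%, 13.1%, 15.3%, 15.5% and 6.21% of all probes were called higher in the same order. The median difference was 0.31, 0.22, 0.25, 0.51 and -0.14 under these settings in the same order. Relative to the median of all probes, it was 0.47, 0.28, 0.26, 0.47 and 0.10.

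Spry1 encodes a cytoplasmic inhibitor of signalling from receptor tyrosine kinases to RAS. It was at -0.63, -0.47, -0.46 and -0.07 in the mutant, against -1.28, -1.13, -1.42 and -1.13 in wild type. All mutant arrays lay above all wild-type arrays. Spry1 was 1.78-fold higher in the mutant (log2 0.83, SE 0.16, limma adjusted p = 0.00577). Of the 19 called probes it was the one whose call held in all 20 alternatives run, with differences from 0.60 to 0.90 and adjusted p up to 0.0445.

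Spry3, another Sprouty gene, was at -5.04, -5.43, -5.52 and -5.21 in the mutant, against -6.12, -5.81, -6.12 and -6.12 in wild type. The groups did not overlap, 3 wild-type arrays were at the floor, and none was well above background, so the probe passed the filter through the mutant arrays alone. The fitted fold of Spry3 was 1.67, higher in the mutant (limma adjusted p = 0.0081), and rests on these dim wild-type values. The call ended with quantile normalization (0.44), with spike-in scaling (0.60) and with a floor 2 times as high (0.02, adjusted p = 0.842), and the sign turned with normexp, at -0.46.

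Spry2, which like Spry1 damps RAS activation, was called on 1 of 2 probes. A_52_P368532 was at -2.77, -2.65, -2.59 and -2.30 in the mutant and at -3.15, -3.07, -3.09 and -2.78 in wild type. The highest wild-type array was just below the lowest mutant array. The difference was 0.45 (SE 0.15, limma adjusted p = 0.0486) and ended as a call under every other scaling and in 7 of the 8 fits without 1 array.

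The Spry2 probe A_51_P445153 was at -2.78, -2.43, -2.51 and -2.25 in the mutant, against -3.59, -2.60, -2.34 and -2.11 in wild type. The groups overlapped, and the difference was 0.17 (limma adjusted p = 0.674). The signals of both Spry4 probes were at the floor on all 8 arrays, so no difference could be measured.

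Spred proteins carry a Sprouty-related domain and block the activation of RAF by RAS. Spred1, which recruits neurofibromin to the membrane, was higher in the mutant on both tested probes. A_51_P119857 was at -1.56, -2.09, -1.86 and -1.66 in the mutant, against -2.42, -2.70, -2.73 and -2.41 in wild type. The groups were apart, and the probe was 1.71-fold higher in the mutant (log2 0.77, SE 0.16, limma adjusted p = 0.00823). It stayed called under each scaling, and with normexp the difference was 0.38 (adjusted p = 0.131).

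The other tested Spred1 probe, A_52_P637689, was at -3.81, -3.60, -3.88 and -3.82 in the mutant and at -4.09, -4.33, -4.36 and -4.44 in wild type. The groups were again apart, with a difference of 0.53 (SE 0.14, limma adjusted p = 0.0182) that ended as a call under every other scaling. The third Spred1 probe was well above background on 1 mutant array and was not tested.

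Spred2, a relative of Spred1, was called on A_51_P234185, at -3.57, -3.51, -3.23 and -2.94 in the mutant against -4.01, -3.96, -3.99 and -3.56 in wild type. Wild-type array 4 reached the lowest mutant array. The difference was 0.57 (SE 0.18, limma adjusted p = 0.0368), a call that ended under every other scaling and in 5 of the 8 fits without 1 array. It was 0.18 on the other Spred2 probe (adjusted p = 0.573). Spred3, the third Spred gene, was at -4.02, -4.13, -4.23 and -4.41 in the mutant and at -4.08, -3.75, -3.46 and -5.16 in wild type. Its groups overlapped, and the difference of -0.09 was not called (adjusted p = 0.852).

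**Figure D4:**
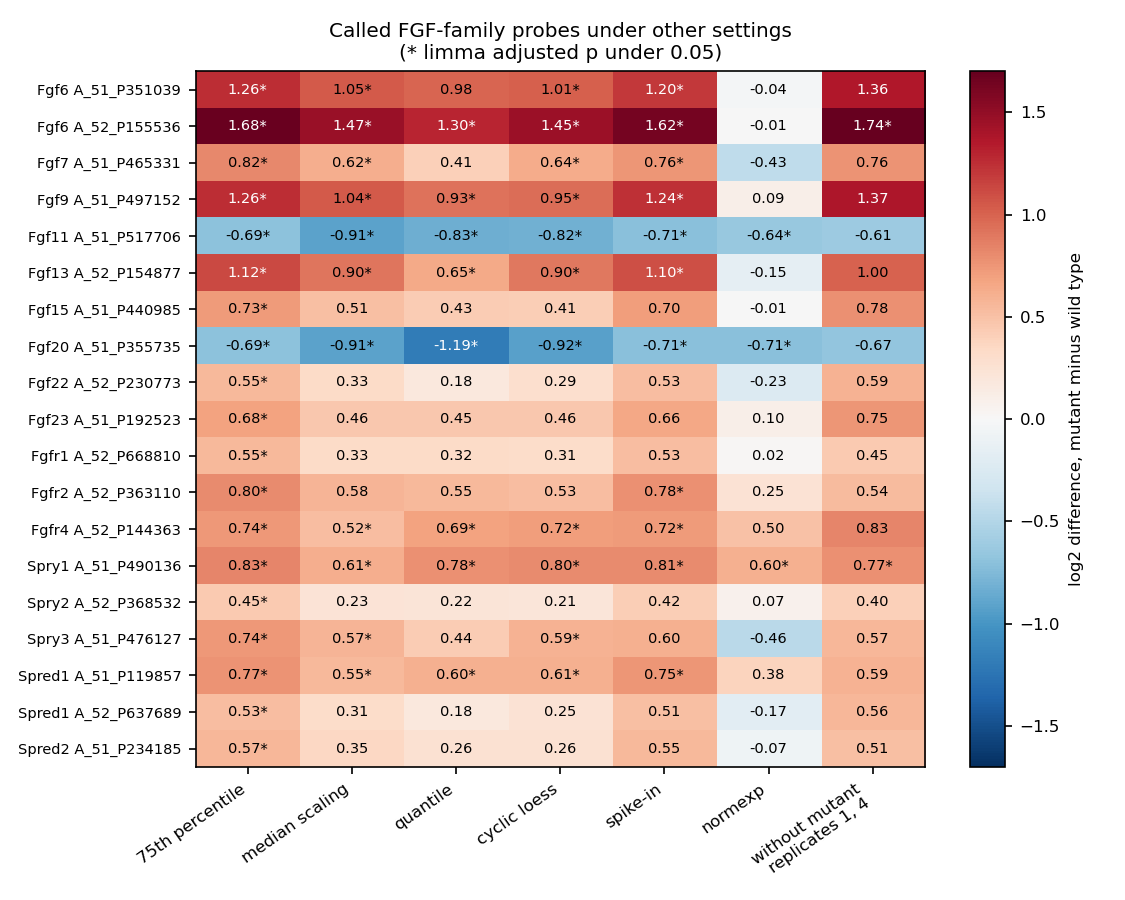
Log2 difference, mutant minus wild type, of the 19 called FGF-family probes (rows) under the 75th percentile scaling and 6 other settings (columns); stars mark a limma adjusted p under 0.05. Spry1 keeps its star in every column, Fgf11 and Fgf20 keep theirs under each scaling and normexp, and 9 probes turn below 0 with normexp.

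Promoters are shown for Spry1, Spred1 and Fgf9, 3 genes called higher in the mutant that stayed called under each scaling, picked after their values were seen. The RefSeq windows, in GRCm38.p6, run from 250 bases before to 50 bases after the annotated start, on the plus strand in all 3 genes. Both strands were searched for an ETS core (CCGGAA), an AP-1 site (TGANTCA), a GC box (GGGCGG) and a TATA box (TATAAA), and capitals mark the matches. ETS and AP-1 factors are nuclear effectors of the MAPK cascade, and GC boxes are bound by Sp1-type factors. Spry1 lay at chr3:37639697-37639996, Spred1 at chr2:117120821-117121120 and Fgf9 at chr14:58072436-58072735.
Spry1: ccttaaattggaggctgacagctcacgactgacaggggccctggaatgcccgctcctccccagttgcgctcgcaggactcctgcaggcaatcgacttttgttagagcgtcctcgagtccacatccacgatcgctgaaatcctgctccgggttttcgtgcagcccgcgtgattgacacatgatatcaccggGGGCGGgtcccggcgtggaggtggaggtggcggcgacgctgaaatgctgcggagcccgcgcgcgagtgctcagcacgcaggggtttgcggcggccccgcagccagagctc
Spred1: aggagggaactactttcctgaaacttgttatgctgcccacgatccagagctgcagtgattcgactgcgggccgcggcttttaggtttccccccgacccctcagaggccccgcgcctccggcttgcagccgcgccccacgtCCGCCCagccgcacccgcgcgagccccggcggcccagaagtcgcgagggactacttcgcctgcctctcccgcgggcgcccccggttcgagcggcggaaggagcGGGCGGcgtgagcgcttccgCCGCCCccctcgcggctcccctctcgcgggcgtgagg
Fgf9: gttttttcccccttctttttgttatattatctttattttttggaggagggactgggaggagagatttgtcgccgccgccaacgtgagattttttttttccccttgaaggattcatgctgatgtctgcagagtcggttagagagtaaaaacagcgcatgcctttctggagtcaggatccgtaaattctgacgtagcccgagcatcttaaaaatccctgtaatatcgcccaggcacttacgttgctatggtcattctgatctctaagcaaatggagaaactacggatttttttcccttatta

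The Spry1 window held 29 CpG dinucleotides and 1 GC box, beginning 60 bases before the start. Spred1 held 40 CpG and 3 GC boxes, of which 2 were matched on the opposite strand, and Fgf9 held 12 CpG and no match to the 4 motifs. The median over 32851 mouse promoters was 7 CpG. Of those promoters, 35.7% held the GC box, 14.9% the ETS core, 7.81% the AP-1 site and 13.6% the TATA box.

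RefSeq promoters were at hand for 24 of the 33 genes (31 promoters, with some genes at several starts). A gene counts below if any of its promoters held the motif, while the shares over all mouse promoters above are per promoter. A GC box was found in 7 of 12 genes called higher and in 10 of 11 genes not called or not tested. The ETS core was found in 2 of the 12 and 3 of the 11, and the AP-1 site in 1 of the 12 and 1 of the 11. The 1 gene called lower that had a promoter, Fgf11, held 5 CpG and none of the 4 motifs.

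The other genes of the pathway were taken as 5 lists of 91 genes in all, with 1 probe per gene. It was the probe of highest mean level among the tested probes of the gene. Some genes, among them Etv5, Mycn and Ndst1, had other tested probes, whose results are not given. Of the 87 genes tested, 30 were higher and 6 lower in the mutant, with a median difference of 0.26. Over all genes with 1 probe each, 21.7% were higher and 12.4% lower, with a median of 0.03. The lists were chosen with earlier results of these data known, so their counts only describe them.

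Of 23 tested coreceptors and extracellular regulators, 10 were higher and 2 lower in the mutant, with a median of 0.33. The FGF-binding protein gene Fgfbp3 was at -4.36, -4.13, -4.23 and -4.34 on mutant arrays, against -6.12, -6.12, -6.12 and -5.51 on wild-type arrays. No wild-type array was well above background, so Fgfbp3 passed the filter through the mutant arrays alone. Its fitted fold of 3.26, higher in the mutant, rests on dim wild-type values (limma adjusted p = 0.000467), and the difference was -0.12 under normexp. The heparan sulfate sulfotransferase gene Ndst1 (0.89, adjusted p = 0.00617) and the Klotho gene Kl (0.63, adjusted p = 0.00634) were higher. Flrt2, a membrane protein that binds FGF receptors (-0.51, adjusted p = 0.0289), and Ndst2, of the same enzyme family as Ndst1 (-0.38, adjusted p = 0.0474), were lower. The call of Flrt2 ended with spike-in scaling and in 4 of the 8 fits without 1 array. The call of Ndst2 ended in each of the 8 fits without 1 array, and that of Kl with quantile normalization, cyclic loess and normexp (-0.09).

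Of 17 tested adaptors and receptor-proximal genes, 6 were higher and 2 lower, with a median of 0.34. The ubiquitin ligase gene Nedd4 was 2.44-fold higher (1.29, limma adjusted p = 0.00188) and held in all 20 alternatives run. Ptpn11, the phosphatase that links receptors to RAS (0.93, adjusted p = 0.00674), and Grb2, the adaptor that brings SOS to the membrane (0.93, adjusted p = 0.00869), were higher. The docking protein gene Frs3 fell by 0.77 (adjusted p = 0.00592), and the ubiquitin ligase gene Cbl fell by 0.45 (adjusted p = 0.0241). The call of Cbl ended with spike-in scaling, with normexp and in 3 of the 8 fits without 1 array.

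The RAS-MAPK cascade itself had 2 of 16 tested genes higher and 1 lower, with a median of 0.003, where that of all genes with 1 probe each was 0.03. The called genes were the RAF kinase gene Araf (0.51, limma adjusted p = 0.0298), the ribosomal S6 kinase gene Rps6ka2 (1.15, adjusted p = 0.0334) and the MAPK kinase gene Map2k2 (-0.37, adjusted p = 0.0425). Each of these 3 calls ended in 5 or 6 of the 8 fits without 1 array. The call of Araf also ended with median and spike-in scaling, and that of Rps6ka2 with median scaling, quantile normalization, cyclic loess and normexp and without the filter on dim probes. Map2k2 differed by -0.058 with quantile normalization and -0.034 with cyclic loess, and was also not called with spike-in scaling or normexp.

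Among 11 tested other feedback inhibitors, 3 were higher and 1 lower, with a median of 0.07. Dusp6, the ERK phosphatase induced by FGF signalling, was at 1.90, 1.45, 1.56 and 1.66 in the mutant, against 0.97, 0.81, 0.67 and 0.86 in wild type. The groups were apart, and Dusp6 was 1.76-fold higher in the mutant (log2 0.82, SE 0.14, limma adjusted p = 0.00461). The related phosphatase gene Dusp7 (0.71, adjusted p = 0.00402) and the receptor inhibitor gene Lrig1 (0.48, adjusted p = 0.0445) were higher, and the phosphatase gene Dusp4 fell by 0.82 (adjusted p = 0.0222). The call of Lrig1 ended under every other scaling, with normexp and in 5 of the 8 fits without 1 array, and that of Dusp4 with quantile normalization, cyclic loess and 3 of those 8 fits. The call of Dusp7 ended with normexp (0.42). Il17rd, the Sef inhibitor, differed by 0.13 (adjusted p = 0.596).

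Of 20 tested transcriptional targets and effectors, 9 were higher and 0 lower in the mutant, with a median of 0.40. The ETS factor gene Etv5 was at -2.50, -2.50, -2.59 and -2.17 in the mutant, against -3.51, -3.21, -3.35 and -3.35 in wild type. The groups were apart, and Etv5 was 1.88-fold higher in the mutant (log2 0.91, SE 0.14, limma adjusted p = 0.00283). The immediate early gene Ier3 was 2.33-fold higher (adjusted p = 0.00145) and the MYC-family gene Mycn 1.90-fold higher (adjusted p = 0.0027). With normexp these 3 differences were 0.18 to 0.31 and were not called.

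Markers of several testis cell types differed between the genotypes as well. Over all genes with 1 probe each, 21.7% were higher and 12.4% lower in the mutant, the shares to set beside the counts here and below. Of 17 tested Sertoli cell markers, 15 were higher in the mutant and 0 lower, with a mean level of 0.78 to 1.29 on mutant and 0.07 to 0.33 on wild-type arrays. Leydig cell markers were higher in 5 of 9 (1.92 to 2.60 on mutant, 0.99 to 1.69 on wild-type arrays), macrophage markers in 8 of 10 (-1.12 to 0.00 and -1.49 to -1.23) and peritubular myoid markers in 3 of 9, with ranges that overlapped (1.30 to 1.94 and 1.12 to 1.54). Endothelial markers were higher in 2 of 9, near the share over all genes, with overlapping ranges (-2.35 to -1.71 on mutant, -2.96 to -2.13 on wild-type arrays). None of these markers was called lower in the mutant, and 4 of the myoid markers had uncalled differences below 0, among them Acta2 at -0.31 and Actg2 at -0.21.

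Of the germ cells, 7 of 16 spermatogonial markers, Etv5 among them, were higher and 1 lower (-1.07 to -0.83 on mutant, -1.35 to -1.21 on wild-type arrays). Spermatocyte markers were lower in 8 of 15 (2.60 to 3.24 and 3.31 to 3.52) and spermatid markers in 6 of 16 (4.75 to 5.08 and 5.12 to 5.40), with 0 higher in either list. Of 14 epididymis markers, 9 were tested and 4 were higher in the mutant, and 5 did not pass the filter. The part of any of these cell types in the FGF-family results was not tested.

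Without mutant arrays 1 and 4, 2 FGF-family probes were called higher, Fgf6 A_52_P155536 (1.74, limma adjusted p = 0.0331) and Spry1 (0.77, adjusted p = 0.0445), and 0 lower. Over all probes 3.91% were then called higher and 0.652% lower. All 19 called probes kept the sign of their difference in that fit, which had 2 mutant arrays against 4 wild-type arrays.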

How the data were processed

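Total RNA from testes of 4 Vrk1 mutant and 4 wild-type mouse samples was extracted with Trizol and 0.5 ug of it was Cy3-labelled and hybridised to 8 single-colour Agilent arrays, per the labels' protocols. Samples were grouped by the genotype in their labels. Signals were read with Agilent Feature Extraction 9.5.3.1, per the submitters' processing notes. The deposited intensity of a spot is its processed signal. Per the file headers, background, estimated with spatial detrending, had been subtracted and a multiplicative trend removed within each array, surrogates were off, and arrays were not scaled to each other. The deposited mean and local background intensity served the normexp alternative. The authors' value table equalled the processed signal for all 45018 features of each array within a relative tolerance of 1e-04.

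From these, the processed signals of an array were expressed relative to the 75th percentile of its non-control features. Values under 0.0144 were raised to that floor before log2 was taken. The floor came from the lowest scaled signal that was well above background on each array, and the highest of these 8 values was used. Spots called outliers by Feature Extraction were left out (11 of 840 FGF-family spots), and the spots of a probe were averaged. For a 10-spot probe, well above background means at least 0.5 of its spots. Probes that 4 or more of the 8 arrays showed well above background, with 3 or more values per group, were fitted with lmFit and eBayes of limma 3.58.1 under R 4.3.3, with genotype as the single factor, two-sided p-values and Benjamini-Hochberg adjustment over 33717 probes. The fit was tested on simulated data. The number of arrays limits the precision, and arrays correlated at 0.966 to 0.995 within a genotype and at 0.953 to 0.984 across genotypes. No feature was saturated.

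Levels of each array were given for every called probe and for Fgf2, Fgf8, Fgf9, the receptors, Sprouty and Spred genes (the probe of highest mean level), and other members by range. From each pathway list the 3 genes of smallest p in each direction among those called were named, and Etv5, Dusp6 and Il17rd whatever their result. The members, lists and markers were chosen with earlier results of these data known. Kal1 was left out of the lists because the name matched another gene. Of the 60 probes, 49 had an accession that RefSeq pairs with a symbol, and all 33 gene names were in the RefSeq table. No annotation of mm7 was used, so exon or UTR positions are not given. Alternatives were median, quantile, cyclic loess and spike-in scaling (7 spike-in probes), normexp with an offset of 50, no filter, all 8 arrays well above background, a floor 2 times as high, 1 probe per gene, array weights, a replicate block, and fits without single arrays or without mutant arrays 1 and 4.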

Additional observations from a re-analysis of the deposited data

Results flagged for a closer look

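Among the 27 named probes (54 groups of 4 arrays), 7 groups had 1 array far from the other 3, measured by its gap to the nearest array over the range of the group and set against Dixon's 95% critical value for 4 samples. Chance flags about 1 in 20 groups. The far array was wild-type array 4 for Spred2 A_51_P234185, at -3.56 against -4.01 to -3.96 on the others, and for Fgfrl1, at 0.75 against 0.05 to 0.16. It was wild-type array 1 for Fgf13 A_52_P154877, at -5.75 against -5.22 to -5.11, and for Fgfr2 A_52_P363110, at -2.84 against -3.76 to -3.68. It was wild-type array 2 for Fgfr4 A_52_P144363, at -0.64 against -1.28 to -1.21, and for Spry3, at -5.81 with the others at the floor of -6.12. It was mutant array 1 for Fgf6 A_51_P351039, at -4.09 against -3.71 to -3.69. Of the 7 arrays, 6 were wild-type arrays. The Spry3 flag was set by the floor: with the other 3 arrays raised to 1 equal value, any higher value is flagged. Before scaling, the Spry3 signals were 3.03, 12.2, 9.70 and 9.02 on wild-type arrays 1 to 4. Without the far array each of the 7 differences kept its sign and its side of the 0.05 threshold.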

How the results depend on the processing

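The number of FGF-family probes called higher in the mutant, 17, was 9 with median scaling, 6 with quantile normalization, 9 with cyclic loess, 9 with spike-in scaling, 1 with normexp, 11 where all 8 arrays had to be well above background, 8 to 16 without 1 array (8 without wild-type array 3, 9 without mutant array 3 or 4, 11 without wild-type array 2) and 2 without mutant arrays 1 and 4. The number called lower, 2, was 5 with median scaling, 5 with quantile normalization, 4 with cyclic loess, 5 with normexp, 4 with array weights and 0 without mutant arrays 1 and 4. Of the 19 calls, 11 were kept with median scaling, 8 with quantile normalization, 11 with cyclic loess, 11 with spike-in scaling and 3 with normexp. Over all probes, 7160 were higher and 3655 lower (66.2% of calls higher). The numbers were 4491 and 8768 with median scaling (33.9%), 4405 and 3385 with quantile normalization (56.6%), 5166 and 2726 with cyclic loess (65.5%), 5223 and 1374 with spike-in scaling (79.2%), 2092 and 3097 with normexp (40.3%), 9799 and 7940 with array weights (55.2%), and 1318 and 220 without mutant arrays 1 and 4 (85.7%), with 1666 to 4411 lower without 1 array. The median difference of all probes, 0.05, was -0.17 with median scaling, -0.06 with quantile normalization, -0.01 with cyclic loess, 0.03 with spike-in scaling and -0.23 with normexp. The median of the tested FGF-family probes lay 0.17 above it, 0.17 with median scaling, -0.01 with quantile normalization, 0.07 with cyclic loess, 0.17 with spike-in scaling and -0.03 with normexp.

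The other pathway genes, 30 higher and 6 lower, were 19 and 21 with median scaling, 21 and 2 with spike-in scaling, 14 and 5 with normexp, 39 and 20 with array weights, and 6 and 0 without mutant arrays 1 and 4, and without 1 array 19 to 31 were higher and 1 to 11 lower. Deviations from the group means correlated at 0.28, 0.23, 0.09 and 0.61 for replicate numbers 1 to 4. Number 3 was not over 0.1, so the samples were treated as sharing only a number and not as paired; 7 of 8 arrays correlated best with their own number, a hint from the data and not from the design. With the replicate block, 17 FGF-family probes were higher and 3 lower with all 19 calls kept, 9242 and 5913 of all probes, and 36 and 14 other pathway genes. Vrk1 kept its call in every alternative, at -2.48 to -1.83.

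With normexp the difference turned to -0.15 for Fgf13, -0.01 for Fgf15, -0.24 for Fgf22, -0.038 for Fgf6 A_51_P351039, -0.013 for Fgf6 A_52_P155536, -0.43 for Fgf7, -0.17 for Spred1 A_52_P637689, -0.068 for Spred2, -0.46 for Spry3, -0.12 for Fgfbp3 and -0.093 for Kl. By construction, the higher 75th percentile of the mutant arrays moves a probe that sits at the normexp offset on all arrays by -0.40. Uncalled differences also turned. Fgfr1 A_51_P109469 was -0.20 with median scaling, -0.18 with quantile normalization, -0.18 with cyclic loess, -0.001 with spike-in scaling, -0.21 with normexp, -0.07 without mutant arrays 1 and 4, and -0.084 to 0.08 without 1 array. Fgfr4 A_51_P408100 was -0.13 with median scaling, -0.014 without mutant arrays 1 and 4 and -0.080 to 0.19 without 1 array. Spry2 A_51_P445153 was -0.05 with median scaling, -0.057 with quantile normalization, -0.041 with cyclic loess, -0.14 with normexp and -0.14 to 0.35 without 1 array. Il17rd was -0.087 with median scaling and -0.035 to 0.23 without 1 array, and Spred3 was -0.43 to 0.13 without 1 array. The cause of these changes, those with normexp included, was not tested.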
